A study of Arabidopsis thaliana with 16 samples.

Results

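In dark-grown Arabidopsis seedlings, 172 of the 13350 genes measured by a probe set of their own had a lower signal 2 h after dexamethasone (DEX), while their signal under far-red light stayed close to that of mock-treated seedlings. The genes were chosen from these same arrays. A member had a mean log2 signal at least 0.5 lower with DEX than with mock in dark, which is a DEX minus mock difference of -0.5 or less, all 4 dark DEX arrays below all 4 dark mock arrays, and a DEX minus mock difference between -0.25 and 0.25 in far-red. In all, 181 genes met these limits, and 9 of them were left out by name. Because the rule used both DEX differences, they are given below as a description of the members, without a test.

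The seedlings were of the FHY3p:FHY3-GR fhy3-4 line, in which the fhy3-4 mutant makes FHY3 fused to the glucocorticoid receptor (GR) from FHY3's own promoter. The groups were seedlings in continuous far-red given 10 µM DEX, seedlings in far-red given ethanol as mock, seedlings in dark given DEX and seedlings in dark given mock, all 4 days old and harvested after 2 h, with 4 Affymetrix ATH1 arrays in each group. All 16 arrays thus come from plants that carry both the mutation and the fusion, and an effect of DEX itself cannot be told apart from one of the fusion protein in the nucleus. The RNA was from whole seedlings, so fewer cells of a type and less RNA per cell cannot be told apart.

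FHY3 is a DNA-binding protein related to transposases. With its relative FAR1 it switches on FHY1 and FHL, whose proteins carry the far-red photoreceptor phytochrome A into the nucleus. A protein fused to GR is held in the cytoplasm until a steroid such as DEX binds it. Genes induced by low oxygen, among them those of fermentation, which yields ATP without oxygen, recur below.

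Values are log2 signals as deposited, so a difference of 1 is a 2-fold change. Array medians lay between 6.60 and 6.68, and arrays of 1 group correlated at 0.9956 to 0.9981. The control signal of ubiquitin at its 3′ end minus its 5′ end, a sign of RNA integrity, was 1.27 ± 0.07 in far-red DEX, 1.19 ± 0.05 in far-red mock, 1.2 ± 0.04 in dark DEX and 1.27 ± 0.01 in dark mock (SD, n = 4 each). It was thus lower with DEX in dark, where the members were lower too, and its part in the result was not tested. FHY3 itself was not analysed here, so the labels were not checked against the level of the targeted gene.

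The DEX minus mock difference of the members in dark had a median of -0.72 and ran from -2.29 to -0.50. In far-red the median was -0.02, with a range of -0.23 to 0.25. In dark 44 members lay at -1 or less and 128 between -1 and -0.5. The 4 dark DEX arrays lay below the 4 dark mock arrays for 5.6% of all 22746 probe sets, a criterion that the members met by choice. In far-red the DEX and mock arrays of 166 members overlapped, those of 5 members lay apart with DEX lower, and those of 1 lay apart with DEX higher. These counts only describe the list, since the far-red window favours overlap and no share over all probe sets stands beside them. The far-red window removed few genes: 200 genes met the limits in dark at any far-red value, of which 15 lay below the window and 4 above it. Just inside the dark limit were AT4G33666 at -0.503, AT5G03390 at -0.502 and AT1G74940 at -0.502. AT1G51805 at -0.499, AT1G13340 at -0.498 and AT3G17520 at -0.496 lay just outside.

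**Figure D1:**
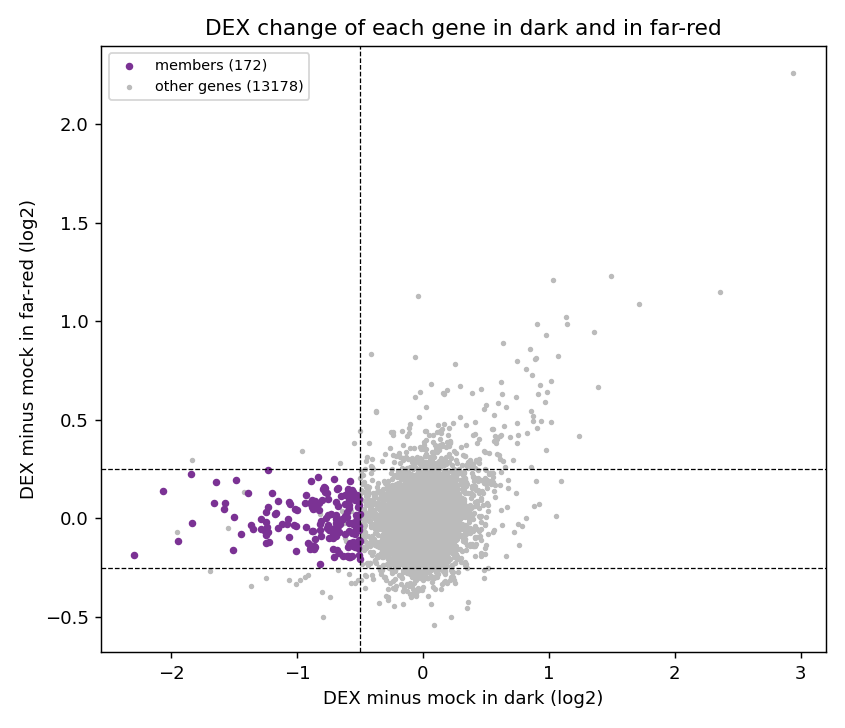
Each point is a gene, with its log2 DEX minus mock difference in dark on the horizontal axis and in far-red on the vertical axis. The 172 members (purple) form a band between -0.25 and 0.25 in far-red that reaches from -0.50 to -2.29 in dark, and the other genes are grey.

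The 4 genes that mark the list were AT5G42200, AT1G20310, AT4G02170 and AT2G41730. For these, as for 152 of the 172 members, the annotation used here gives a locus tag and no symbol. AT5G42200 had 10.68, 10.79, 10.78 and 10.74 in far-red DEX, 10.78, 10.75, 10.99 and 11.20 in far-red mock, 8.03, 8.04, 8.54 and 7.87 in dark DEX, and 10.88, 9.77, 10.45 and 10.53 in dark mock. Only the dark DEX arrays stood apart, more than 1 log2 unit below every other array, and the mean difference in dark was -2.29, or 4.89-fold lower with DEX. AT1G20310 had 6.73, 6.72, 6.75 and 6.79 in far-red DEX, 6.75, 6.38, 6.76 and 6.53 in far-red mock, 4.82, 4.77, 5.23 and 4.98 in dark DEX, and 7.17, 6.61, 7.15 and 7.13 in dark mock. Its dark DEX signals were again the lowest, but dark mock was higher than far-red in 3 of its 4 arrays, and the difference in dark was -2.06.

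AT4G02170 had 8.65, 8.75, 8.75 and 8.62 in far-red DEX, 8.60, 8.79, 8.80 and 9.04 in far-red mock, 6.31, 6.82, 6.55 and 6.28 in dark DEX, and 8.65, 8.12, 8.39 and 8.58 in dark mock. AT2G41730 had 8.31, 8.33, 8.96 and 8.57 in far-red DEX, 8.26, 8.27, 8.37 and 8.96 in far-red mock, 6.53, 6.61, 7.04 and 6.56 in dark DEX, and 8.82, 7.87, 8.20 and 8.49 in dark mock. In both genes the far-red arrays overlapped those of dark mock and lay above all those of dark DEX, and their differences in dark were -1.95 and -1.66. AT2G41730 is the only member read by a probe set of the type that may detect similar transcripts.

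The other 8 of the 12 members with the most negative differences in dark were PDF2.1 (-1.84), AT2G15010 (-1.83), AT2G43590 (-1.65), AT4G33140 (-1.58), AT2G34400 (-1.57), AT3G23170 (-1.51), AT1G76600 (-1.50) and LCR67 (-1.48). Their far-red differences ran from -0.16 for AT3G23170 to 0.23 for PDF2.1.

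**Figure D2:**
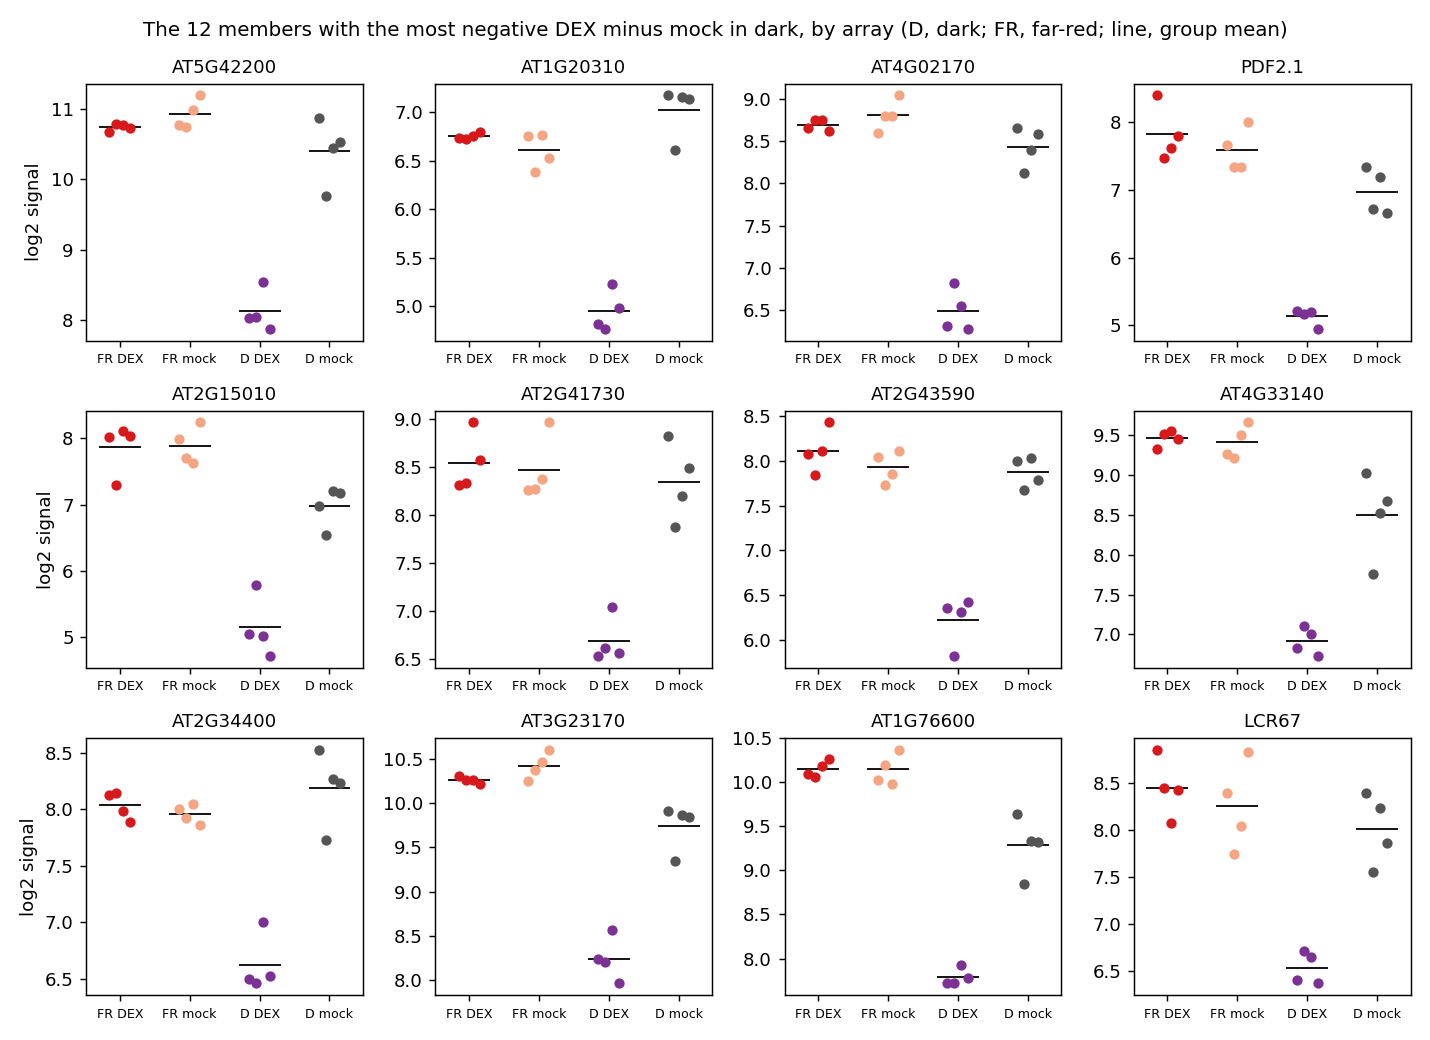
Log2 signal in each of the 16 arrays for the 12 members with the most negative DEX minus mock difference in dark, with dots for arrays and a line for each group mean. In each of the 12 panels the dark DEX arrays lie below the arrays of the other 3 groups.

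The light under which the seedlings grew gives a further comparison. The mean light effect is the far-red mean over DEX and mock minus the dark mean over DEX and mock. Its estimate is statistically independent of the DEX differences only where the groups are equal in size and in spread. The spread of the members was not equal, with a median SD of 0.209 in dark mock and 0.141 in dark DEX. By arithmetic the effect also includes part of the low dark DEX level. Neither a call nor the share of members called thus shows a light difference without DEX. The light difference under mock, which has no test here, stands beside it for each gene named by its role. It is also given for those with the highest and lowest effects. By limma, with Benjamini-Hochberg adjustment over all 22746 probe sets, 133 members (77.3%) were called higher in far-red, against 21.8% of all probe sets, and 25 (14.5%) were called lower, against 26.6%. The remaining 14 were not called at an adjusted p under 0.05. The median effect of the members was 0.63, with a range of -1.77 to 2.02, and that of all probe sets was -0.014.

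Under mock alone, far-red minus dark had a median of 0.21 over the members and ran from -2.03 to 1.65, with 118 members above 0 and 54 below. The 4 far-red mock arrays lay above the 4 dark mock arrays for 64 members (37.2%), against 16.1% of all probe sets, and below them for 27 (15.7%), against 18.4%. The dark mock arrays entered the rule, which picks genes high in them and so pulls this difference down. Under DEX the median was 1.01, with the far-red arrays above the dark arrays for 143 members (83.1%; 17.4% of all probe sets) and below for 9 (5.23%; 22.4%). There the rule pulls the other way, because it picks genes low in dark DEX. Both differences therefore stand as descriptions. Of the 133 members called higher for the mean light effect, 118 were above 0 under mock and 15 were below.

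**Figure D3:**
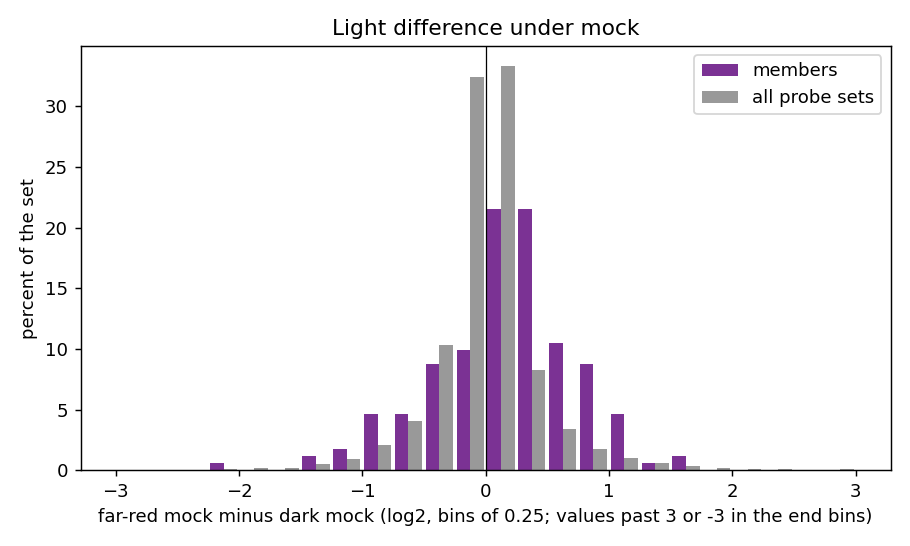
Percent of the 172 members and of all probe sets in each bin of far-red mock minus dark mock (log2, bins of 0.25). The members are spread around a median of 0.21, with 118 above 0.

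The members with the largest differences in dark were also most often called higher in far-red. Of the 44 with a dark difference of -1 or less, 43 were called higher and 1 lower, with a median of 0.31 under mock. Of the 49 between -1 and -0.7, 38 were higher and 6 lower (median under mock 0.21). Of the 79 between -0.7 and -0.5, 52 were higher and 18 lower (median under mock 0.13). Part of this order follows from the arithmetic above, since a lower dark DEX level raises the mean light effect, so the order is a description only. No test was made of it. Of all probe sets, 21.8% were called higher and 26.6% lower.

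By the level in far-red, averaged over DEX and mock, the members fell into 3 patterns. For 115 of them (66.9%) the far-red mean lay above the dark mock mean, for 39 (22.7%) it lay between dark mock and dark DEX, and for 18 (10.5%) it lay below dark DEX. Dark DEX held the lowest mean of the 4 groups for 152 members. The highest mean was in far-red mock for 65, in far-red DEX for 54 and in dark mock for 53. The order of the dark groups, and the closeness of the far-red ones, were fixed by the rule.

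**Figure D4:**
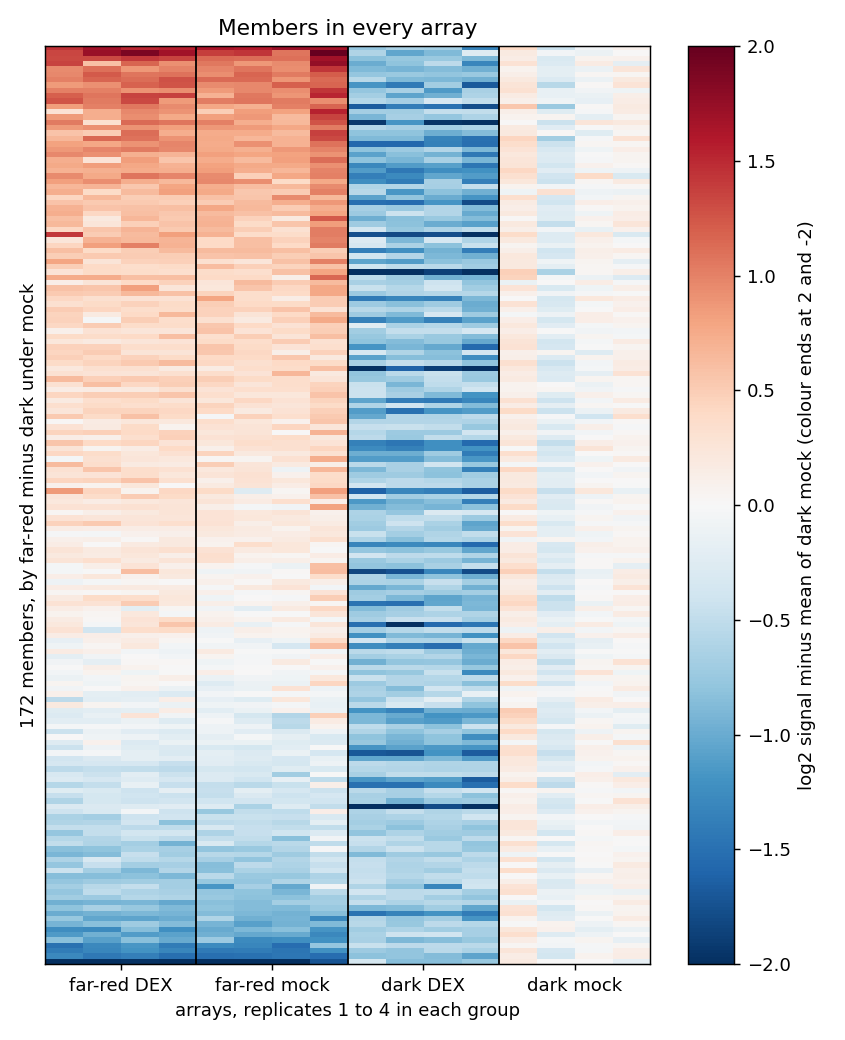
Log2 signal of the 172 members in each array minus the gene's dark mock mean, with rows ordered by far-red minus dark under mock and columns in the order far-red DEX, far-red mock, dark DEX and dark mock. The dark DEX block is below the dark mock mean throughout, and far-red mock averages below it in the rows of the 54 members that were lower in far-red mock.

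The 6 members with the highest mean light effect were AT5G01740, AT1G54050, AT2G15010, AT4G33140, AT5G55970 and AT4G28703. AT5G01740 had 11.67, 11.89, 11.72 and 11.77 in far-red DEX, 11.85, 11.80, 11.93 and 11.88 in far-red mock, 9.44, 9.57, 9.54 and 8.89 in dark DEX, and 10.61, 9.79, 10.17 and 10.30 in dark mock. Every far-red array was above every dark array, and the mean light effect was 2.02 ± 0.10 (SE; adjusted p = 5.17e-13). Under mock alone AT5G01740 differed by 1.65. AT1G54050 had a mean light effect of 1.96 ± 0.15 (SE; adjusted p = 3.43e-10) and a difference of 1.57 under mock. For the other 4 the effect lay between 1.68 and 1.81, with 0.91 for AT2G15010, 0.92 for AT4G33140, 1.26 for AT5G55970 and 1.06 for AT4G28703 under mock.

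At the other end were AT5G52670, AT1G02810, AT3G19320, AT3G13650, AT3G29970 and AT5G52680. AT5G52670 had 6.72, 6.64, 6.99 and 6.63 in far-red DEX, 6.90, 6.92, 6.71 and 7.24 in far-red mock, 8.62, 8.11, 8.12 and 8.21 in dark DEX, and 9.14, 8.96, 8.97 and 8.80 in dark mock. Each of its far-red arrays lay below each of its dark arrays, and the mean light effect was -1.77 ± 0.09 (SE; adjusted p = 3.32e-13), with -2.03 under mock. AT5G52680, its neighbour on the chromosome, had -0.73 ± 0.07 (SE; adjusted p = 2.57e-08) and -0.98 under mock. The effects of the other 4 lay between -1.02 and -0.81, and under mock AT1G02810 stood at -1.22, AT3G19320 at -1.49, AT3G13650 at -1.37 and AT3G29970 at -1.07. All 6 had far-red means below dark DEX.

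The 20 members with a symbol can be described by what they encode. PDC2 is a pyruvate decarboxylase, the enzyme that opens ethanol fermentation. It had 11.49, 11.57, 11.50 and 11.43 in far-red DEX, 11.54, 11.49, 11.49 and 11.64 in far-red mock, 9.44, 9.61, 9.64 and 9.29 in dark DEX, and 10.99, 10.37, 10.82 and 10.75 in dark mock. Far-red arrays were the highest whether or not DEX was given, and dark DEX arrays the lowest. The difference in dark was -1.24, or 2.36-fold lower with DEX, and the mean light effect was 1.41 ± 0.07 (SE; adjusted p = 1.02e-12), with 0.81 under mock.

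Both plant defensin genes among the members, PDF2.1 and LCR67 (PDF1.1), encode small cysteine-rich proteins of a family known for acting on fungi. PDF2.1 had 8.39, 7.47, 7.61 and 7.79 in far-red DEX, 7.66, 7.34, 7.34 and 8.0 in far-red mock, 5.21, 5.17, 5.20 and 4.95 in dark DEX, and 7.33, 6.71, 7.18 and 6.66 in dark mock. LCR67 had 8.86, 8.45, 8.08 and 8.43 in far-red DEX, 8.40, 7.75, 8.05 and 8.84 in far-red mock, 6.40, 6.71, 6.65 and 6.37 in dark DEX, and 8.40, 7.56, 8.24 and 7.86 in dark mock. In each gene the far-red DEX and far-red mock arrays overlapped. The mean light effect of PDF2.1 was 1.65 ± 0.13 (SE; adjusted p = 6.06e-10), with 0.61 ± 0.18 under mock. That of LCR67 was 1.08 ± 0.14 (SE; adjusted p = 1.58e-06), but under mock its far-red and dark arrays overlapped, at a difference of 0.24 ± 0.20, and the larger share of the effect lay in the dark DEX arrays by which the gene was chosen.

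PUB19, PUB23 and PUB24 encode U-box ubiquitin ligases, which mark proteins for degradation, and had dark differences of -1.06, -0.57 and -0.56. PUB19 and PUB23 were called higher in far-red, with mean light effects of 0.77 and 0.59 (adjusted p = 6.3e-07 and 1.79e-06), and PUB24 was called lower, at -0.35 (adjusted p = 0.00176). Under mock PUB19 stood at 0.28, PUB23 at 0.24 and PUB24 at -0.62. PUB24 had 5.63, 5.38, 5.16 and 5.46 in far-red DEX, 5.21, 5.42, 5.41 and 5.66 in far-red mock, 5.57, 5.45, 5.36 and 5.57 in dark DEX, and 6.40, 5.77, 5.89 and 6.15 in dark mock. Here dark mock alone stood apart, above the 3 other groups, which overlapped.

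Among regulators, WRKY6, a transcription factor gene of senescence and defence, was likewise highest in dark mock. It had 8.76, 8.76, 8.71 and 8.72 in far-red DEX, 8.91, 8.77, 8.74 and 8.74 in far-red mock, 8.60, 8.41, 8.58 and 8.43 in dark DEX, and 9.47, 9.05, 9.24 and 9.16 in dark mock. All far-red arrays lay between those of dark mock and dark DEX, and the mean light effect was -0.10 ± 0.06 (SE; adjusted p = 0.146), which did not pass the test, with -0.44 under mock. AT3G10040, with the synonym HRA1 in the RefSeq table, encodes a factor that dampens the low-oxygen response, and it had 11.93, 11.86, 11.71 and 11.66 in far-red DEX, 11.94, 11.75, 11.76 and 11.71 in far-red mock, 11.22, 11.26, 11.04 and 10.78 in dark DEX, and 11.99, 11.55, 11.75 and 11.76 in dark mock. For HRA1 it was dark DEX that stood apart, at a difference of -0.69, and the other 3 groups overlapped. Its mean light effect of 0.37 (adjusted p = 0.000229) thus rests on dark DEX, since under mock the difference was 0.025 ± 0.104 (SE).

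TIL, LEA18 and MSRB6 encode proteins that protect cells under stress. TIL, a temperature-induced lipocalin of membranes, had 12.83, 12.94, 13.00 and 12.93 in far-red DEX, 12.72, 12.68, 12.83 and 12.95 in far-red mock, 11.15, 11.23, 11.37 and 11.06 in dark DEX, and 12.23, 11.64, 11.88 and 12.10 in dark mock. The groups lay in 3 steps, far-red above dark mock above dark DEX, with a difference of -0.76 in dark and a mean light effect of 1.28 ± 0.07 (SE; adjusted p = 4.82e-12), with 0.84 under mock. LEA18, a late embryogenesis abundant protein, and MSRB6, which repairs oxidised methionine, had dark differences of -0.75 and -0.58. Their mean light effects were 1.24 (adjusted p = 4.66e-11) and 0.99 (adjusted p = 2.82e-12), with 0.91 and 0.73 under mock.

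Some annotated members act on the cell wall. GAUT15, of a family that builds pectin, had a dark difference of -0.76 and a mean light effect of 0.58 (adjusted p = 1.85e-07), with 0.15 under mock. AT4G30380, for which the RefSeq table gives the synonym EXLB2 (expansin-like B2), had 8.93, 8.87, 8.94 and 8.86 in far-red DEX, 8.93, 8.80, 9.04 and 8.69 in far-red mock, 8.04, 8.14, 8.10 and 7.54 in dark DEX, and 9.32, 8.77, 9.30 and 9.42 in dark mock. Its far-red arrays lay between the dark groups except where they overlapped dark mock replicate 2, and its dark difference was -1.25. It was called higher in far-red at 0.30 (adjusted p = 0.00972), although under mock it was lower there, at -0.34. The peroxidase gene PRX52 and the pectin methylesterase gene ATPMEPCRB had dark differences of -0.56 and -0.55. For PRX52 far-red and dark differed by 0.05 ± 0.12 (SE) under mock and by 0.72 under DEX, so its mean light effect of 0.39 (adjusted p = 0.000767) rests on the dark DEX arrays. ATPMEPCRB had a mean light effect of -0.23 (adjusted p = 0.0192), with -0.47 under mock and 0.01 under DEX.

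The remaining members with a symbol were of mixed function. AZG1, a purine transporter, SUFE2, which activates a cysteine desulfurase, HMT-1, a homocysteine methyltransferase, and SGP1 had dark differences of -0.61, -0.58, -0.56 and -0.65, and all 4 were called lower in far-red, at -0.59, -0.34, -0.19 and -0.38, with -0.96, -0.54, -0.41 and -0.76 under mock. RALFL18, a peptide of the RALF family of cell signals, AR781 and ZCF37 had dark differences of -0.53, -1.28 and -0.52, and all 3 were called higher, at 0.85, 0.67 and 0.30. Under mock RALFL18 stood at 0.61, but AR781 at 0.03 ± 0.18 and ZCF37 at 0.04 ± 0.13 (SE), so the calls of AR781 and ZCF37 rest on the dark DEX arrays by which they were chosen.

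A list of genes known to be induced by low oxygen was set beside the members. It was written with earlier results of these data known, so its count is not independent evidence. Of 44 genes listed, 20 were measured by a single-gene probe set named in the annotation used here. The 11 members among them were PDC2, AT3G10040, AT5G10040, AT1G76600, AT4G24110, AT2G17850, AT4G33560, AT5G66985, AT4G10270, AT3G27220 and AT1G74940. Their dark differences ran from -1.50 to -0.50 with a median of -1.02, against -0.72 for all members, and their far-red differences from -0.07 to 0.11. All 11 were called higher for the mean light effect, with a median of 0.82, as were 77.3% of all members and 21.8% of all probe sets. These calls include the low dark DEX levels by which the genes were chosen. Under mock 10 of the 11 were above 0, with AT3G10040 at 0.025 and AT3G27220 at -0.09 the lowest. These were bright genes, with mean levels from 9.34 to 12.34.

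AT5G10040, at a mean level of 12.34, had 12.85, 12.80, 12.67 and 12.75 in far-red DEX, 12.88, 12.63, 12.64 and 12.74 in far-red mock, 11.46, 11.47, 11.73 and 11.04 in dark DEX, and 12.78, 12.07, 12.45 and 12.46 in dark mock. AT4G24110 had 11.48, 11.25, 11.36 and 11.50 in far-red DEX, 11.51, 11.51, 11.48 and 11.36 in far-red mock, 9.51, 9.64, 9.93 and 9.49 in dark DEX, and 10.99, 10.48, 10.99 and 11.03 in dark mock. In AT4G24110 all far-red arrays lay above all dark arrays, whereas in AT5G10040 dark mock reached into the far-red range.

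The rest of the low-oxygen list was also written with earlier results of these data known, so its counts are not independent evidence either. Of the 9 measured low-oxygen genes that are not members, 3 fell with DEX in dark by limma, against 3.56% of all probe sets called lower there. These were AT1G33055 (-0.45 ± 0.09, adjusted p = 0.00321), AT4G27450 (-0.31 ± 0.08, adjusted p = 0.0221) and AT3G03270 (-0.30 ± 0.08, adjusted p = 0.0274), with SE. The count was 1 when dark DEX replicate 1 was left out, and also when dark mock replicate 1, 3 or 4 was. In far-red 0 of the 9 were called lower (0.119% of all probe sets; 0 also at an unadjusted p under 0.05) and 1 was called higher (0.919%), AT4G17670 at 0.46.

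Few genes of the other lists had a single-gene probe set named in the annotation used here. The rest could not be read, and some may be among the 8730 probe sets unnamed here. In dark PPDK, of 2 starvation genes, fell by 0.30 (adjusted p = 0.0243). FHL, of the 2 FHY3 and phytochrome A genes, and CML38 and STZ, of 4 rapid stress genes, were called lower too, and all 3 were left out of the members by name. FHL also lay outside the far-red window, with a DEX difference of -0.31 in far-red beside -0.98 in dark. By limma the far-red difference was not called (adjusted p = 0.39). FHL was thus lower with DEX in dark, although FHY3 is described above as switching it on, and the cause was not tested. The response of CML38 and STZ was also more positive in far-red than in dark, a call made for 1.7% of all probe sets. Both genes met the numerical limits of the rule, which used both DEX differences. Their calls, in dark as well, are therefore a description, and the share of all probe sets is no test of them. None of the 2 ethylene, 3 abscisic acid, 1 root, 1 guard cell or 5 photosynthesis genes was called with DEX in dark by limma. Of all probe sets, 2.34% were called higher there and 3.56% lower, so lists this short can show little. At an unadjusted p under 0.05 the root gene EXPA7 and 2 photosynthesis genes were higher. The photosynthesis genes had a median DEX difference of 0.09 in dark, and all 5 were called higher in far-red.

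The mean level of 128 of the 172 members lay above the median of all probe sets. That base also holds unnamed and dimmer second probe sets, whereas the members are read by the brightest of each gene. Their median level over the 16 arrays was 7.79, against 6.65 for all probe sets, and 67 lay above the upper quartile of 8.37. The brightest were AT5G19120 (12.47), AT5G10040 (12.34) and TIL (12.22), and the dimmest were AT1G66860 (3.73), AT5G66815 (3.92) and AT1G27461 (4.59). The mean level of 2 members lay below the lower quartile of 4.45, and the dark DEX mean of 5 did.

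Members lay on every nuclear chromosome: 46, 32, 28, 25 and 41 on chromosomes 1 to 5, or 1.35, 1.48, 1.03, 1.29 and 1.38% of the genes measured on each. Next to each other on a chromosome were 4 pairs of members. AT1G76220 and AT1G76230 had dark differences of -1.01 and -1.16, AT2G32020 and AT2G32030 of -1.44 and -0.76, AT5G03380 and AT5G03390 of -0.53 and -0.50, and AT5G52670 and AT5G52680 of -0.70 and -0.67. Of 177 measured neighbours that are not members, 10 (5.65%) were called lower with DEX in dark, against 3.56% of all probe sets. Whether members or calls lay together more often than by chance was not tested. A further probe set exists for 2 members: that of AT1G18390 gave -0.65 in dark beside -0.58, and that of AT2G27390, which is dimmer at 4.02, gave -0.01 beside -0.62.

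The members moved together between arrays of the same group, most of all in dark mock. Dark mock replicate 2 was the lowest of the 4 for 143 members (83.1%, against 26.4% of all probe sets), with a median deviation from the group mean of -0.257. Dark mock replicate 1 was the highest for 126 members (73.3%, against 29.1%), at a median of 0.188. Both held at once for 109 members, against 10.9% of all probe sets. The median SD of the members was 0.10 in far-red DEX, 0.144 in far-red mock, 0.141 in dark DEX and 0.209 in dark mock, against 0.094, 0.119, 0.111 and 0.109 for all probe sets. In far-red mock, replicate 4 was the highest for 104 members (60.5%, against 20.9%), and in dark DEX, replicate 4 was the lowest for 80 (46.5%, against 26.2%).

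The same arrays set how many genes met the rule. Without dark mock replicate 2, 208 genes met it, 171 of them members. Without dark mock replicate 1, 151 met it, 149 of them members. The cause of the shared deviation was not tested.

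**Figure D5:**
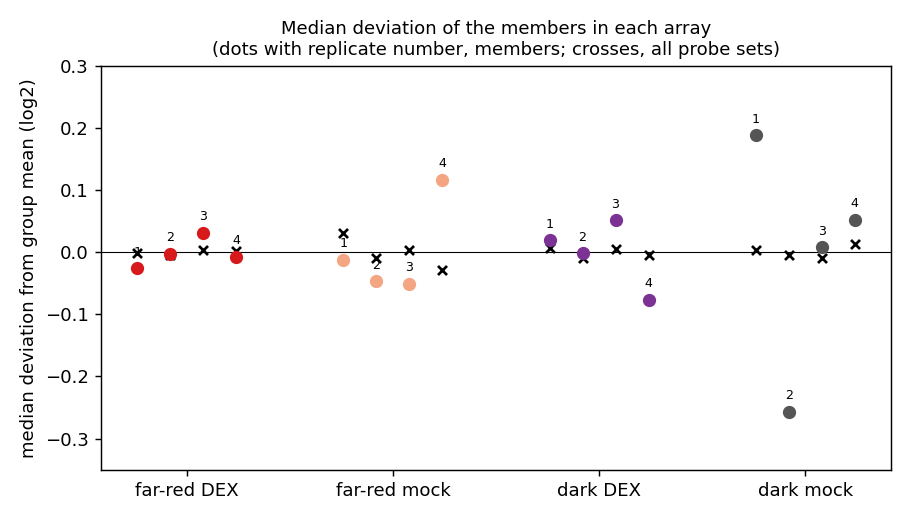
Median deviation of the 172 members from their group mean in each array (dots with the replicate number) beside that of all probe sets (crosses), in log2 units. Dark mock replicates 1 and 2 lie at 0.188 and -0.257, while the crosses stay near 0.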

How the data were processed

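RNA of 16 seedling samples, 4 in each of 4 groups taken from the sample titles, was measured on ATH1 arrays. The log2 signals were deposited by the authors, and per the submitters' processing notes RMA and affy were used, with versions not given in the sources used here. Without 64 control probe sets, 22746 remained for the tests: the annotation pairs 13513 with 1 gene and 503 with several, 8730 are unnamed here, and the brightest stands for each of 13350 genes. Names and neighbours, with no coordinates, come from RefSeq's gene table (TAIR10.1), in which all 172 members were found.

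One limma 3.58.1 model in R 4.3.3 (lmFit, eBayes, a mean per group, 19.65 degrees of freedom with the prior) was fitted to all arrays, with Benjamini-Hochberg adjustment over all probe sets at 0.05. On simulated data for the mean light effect over 22746 probe sets, 199 of 200 changed by 0.5 (log2) were recovered, with 10 false calls. For DEX in dark 184 of 200 were recovered, with 7 false calls. The simulated errors were independent between probe sets, so deviations shared by the members were not covered. The series' text calls the replicates independent, and 7 of 24 pairs of same-numbered arrays correlated in their deviations at over 0.1, short of the every pair required to treat numbers as a pairing. The files give no depth, so the 4 arrays per group limit the precision.

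Members and gene lists were chosen with earlier results of these data known, and roles are given only where the annotation has a symbol or a descriptive synonym. Genes were named by rule: the 4 marker genes, the 12 most negative dark differences, the 6 highest and 6 lowest light effects, the 3 brightest and 3 dimmest, the 3 nearest each side of the limit, every member with a symbol, and up to 3 others per list. AT4G30380, AT3G10040, the members of the low-oxygen list, the neighbouring pairs and the genes with a further probe set were added after their values were seen. Alternatives were array weights, quantile normalisation, a trended prior, a replicate block, no interaction term, the mean of a gene's probe sets and leaving out each array.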

Additional observations from a re-analysis of the deposited data

Results flagged for a closer look

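Arrays far from the other 3 of their group were looked for in 272 sets of 4 arrays from 68 genes, by comparing the gap to the nearest array with the whole range, and 24 were found. Chance gives about 1 in 20 sets. In far-red DEX there were 5. AT1G18740 replicate 2 was the lowest at 9.15, against 9.25 to 9.26 in the others. AT2G15010 replicate 2 was the lowest at 7.29, against 8.02 to 8.11 in the others. AT5G52680 replicate 3 was the highest at 4.83, against 4.41 to 4.45 in the others. PRX52 replicate 2 was the lowest at 5.58, against 6.26 to 6.34 in the others. RALFL18 replicate 1 was the lowest at 5.23, against 5.63 to 5.68 in the others. In far-red mock there were 6. AT2G41730 replicate 4 was the highest at 8.96, against 8.26 to 8.37 in the others. AT3G29970 replicate 4 was the lowest at 9.59, against 9.86 to 9.91 in the others. AT5G55970 replicate 4 was the highest at 9.09, against 8.50 to 8.54 in the others. HMT-1 replicate 4 was the highest at 8.59, against 8.43 to 8.45 in the others. RTE1 replicate 4 was the lowest at 8.74, against 8.96 to 8.98 in the others. WRKY6 replicate 1 was the highest at 8.91, against 8.74 to 8.77 in the others. In dark DEX there were 7. AT2G34400 replicate 3 was the highest at 7.0, against 6.46 to 6.52 in the others. AT2G41730 replicate 3 was the highest at 7.04, against 6.53 to 6.61 in the others. CML38 replicate 4 was the lowest at 9.36, against 9.85 to 9.95 in the others. FHL replicate 4 was the lowest at 9.18, against 9.51 to 9.55 in the others. PDF2.1 replicate 4 was the lowest at 4.95, against 5.17 to 5.21 in the others. PUB19 replicate 3 was the highest at 7.11, against 6.81 to 6.86 in the others. RTE1 replicate 3 was the lowest at 8.52, against 8.61 to 8.63 in the others. In dark mock there were 6. AT1G20310 replicate 2 was the lowest at 6.61, against 7.13 to 7.17 in the others. AT1G66860 replicate 1 was the highest at 4.53, against 4.09 to 4.13 in the others. AT3G03270 replicate 2 was the lowest at 11.35, against 11.68 to 11.74 in the others. AT3G19320 replicate 2 was the lowest at 7.34, against 7.78 to 7.86 in the others. AT3G23170 replicate 2 was the lowest at 9.35, against 9.85 to 9.91 in the others. LEA18 replicate 3 was the lowest at 7.69, against 7.94 to 7.95 in the others. 

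The DEX responses of 2 rapid stress genes that were left out of the members by name were more positive in far-red than in dark. Both genes met the numerical limits of the rule, which used both DEX differences. Their values are therefore a description, without a test. CML38, a calmodulin-like gene, had a DEX difference of 0.14 in far-red and -1.42 in dark, a difference of 1.55. STZ, a zinc finger gene, had 0.02 in far-red and -0.82 in dark, a difference of 0.84.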

How the results depend on the processing

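Leaving out 1 array at a time gave 151 to 208 genes meeting the rule, a median DEX difference of -0.802 to -0.673 in dark and of -0.028 to 0.031 in far-red, and a median mean light effect of 0.589 to 0.664. It gave 133 to 135 members called higher and 24 to 27 called lower in far-red, and 104 to 122 members above 0 both under mock and under DEX. The other low-oxygen genes called lower in dark numbered 1 to 4. Among the other settings, members called higher ranged between 124 with no interaction term and 135 with quantile normalisation. With the replicate number as a block, 134 members were called higher and 25 lower, and no count moved by over 1.5 times. Same-numbered arrays correlated in their deviations at -0.151 to 0.319, with 7 of 24 pairs over 0.1, and 4 of 16 arrays matched their own number best. The numbers were therefore not treated as a pairing, but these values cannot show that no arrays shared a batch. Of the values of the named members alone under these alternatives, 1053 kept their direction and side of the threshold and 1 did not: ATPMEPCRB had a mean light effect of -0.226 (adjusted p = 0.0521) with no interaction term, and the cause was not tested. The trended prior gives no separate median. The precision rests on 4 arrays per group, and no background signal was available to show which dim probe sets were measured above it.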

Other observations

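The opposite choice took genes with a DEX minus mock difference of 0.5 or more in dark, separate dark arrays and a far-red difference between -0.25 and 0.25. It gave 31 genes with none left out by name, against 181 that met the members' limits before 9 were left out. Their median DEX difference in dark was 0.57. For the mean light effect 7 of the 31 were called higher in far-red and 19 lower, against 21.8% and 26.6% of all probe sets. The median effect of the 31 was -0.38 and, under mock alone, -0.14. The rule and the arithmetic that bear on the members bear on these genes in the other direction, and no test was made of the difference between the sets.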
